A study of Mus musculus with 66 samples.

Results

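The genes described here encode zinc finger and BTB proteins of the mouse small intestinal epithelium. They were chosen by name alone: every row of the expression table whose gene symbol starts with Zfp, Zbtb, Zkscan or Zscan and goes on with a digit. The rule gave 99 genes in 101 transcript rows, of 8978 genes in 9481 transcript rows. A total of 100 of the 101 rows had counts in enough libraries to be tested. The one that had not was Zfp423, which encodes a factor known from fat cell commitment, with 1 read in 1 CV library, 1 read in 1 ENR library and none in the other 10.

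C2H2 zinc fingers are short folds held by a zinc ion that read DNA bases, and some bind RNA or other proteins instead. In KRAB zinc finger proteins a KRAB domain recruits Trim28 (KAP1), which brings Setdb1, heterochromatin protein 1 and histone deacetylases and silences mainly transposable elements. BTB domains pair the protein and recruit corepressors such as Ncor1 or the ubiquitin ligase scaffold Cul3, while the SCAN domain of Zkscan and Zscan proteins mediates pairing between family members. In the intestine, zinc finger factors with other names (Klf4, Klf5) are well known regulators of the crypt and villus programmes.

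Organoids carrying the Lgr5GFPDTR/+ reporter allele, which all groups share, were grown in 3 media. ENR holds Egf, Noggin and R-Spondin-1 and keeps stem cells and their progeny side by side. CV is ENR with CHIR99021 (3 µM), an inhibitor of GSK3, and valproic acid (1 mM), an inhibitor of histone deacetylases, and is used to enrich for stem cells. EN lacks R-Spondin-1 and is used to enrich for enterocytes. The time in culture differed between CV and EN. CV therefore differs from EN by 2 small molecules, by R-Spondin-1 and by time, whose parts cannot be told apart. RNA-seq and ATAC-seq (which marks open chromatin) had 4 libraries per culture, and each histone mark had 3. Nothing says that replicates came from separate animals or cultures, so p-values measure the spread between these libraries.

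Counts assigned to transcripts summed to between 5630951 and 8859744 per RNA library. Lgr5, the stem cell marker, was at 90.1 ± 3.6 CPM (counts scaled to a common library size; SD, n = 4) in CV, 129 ± 4.9 in ENR and 1.81 ± 0.78 in EN, and Alpi, of the enterocyte brush border, at 157 ± 10.5, 172 ± 11.7 and 635 ± 31.0. The 7 stem cell markers summed to 634 to 684 CPM in CV, 1766 to 1918 in ENR and 42.0 to 49.5 in EN. Olfm4 alone made up most of the gap between CV and ENR (10.9 ± 6.4 against 1229 ± 61.7). All 9 proliferation genes fell from CV to EN. They summed to 1510 to 1559 CPM in CV, 2269 to 2380 in ENR and 179 to 196 in EN. Paneth cell markers summed to 2548 to 2878 CPM in CV, 4020 to 4272 in ENR and 1510 to 1723 in EN. Both sums were thus highest in ENR. Goblet markers summed to 856 to 950 CPM in CV, 1865 to 2017 in ENR and 8447 to 9338 in EN, and enteroendocrine and tuft markers to 25.9 to 39.6, 528 to 547 and 1375 to 1862. From CV to EN all 5 goblet markers (median log2 fold change 3.42), all 7 enteroendocrine and tuft markers (5.20) and all 10 enterocyte markers (2.37) rose, and all rose from ENR to EN too (2.45, 1.74 and 2.57). Of the 9 markers of stromal, immune and endothelial cells 4 were listed. They summed to 3.47 to 4.72 CPM in CV, 8.31 to 9.98 in ENR and 23.6 to 29.4 in EN. In bulk RNA, fewer cells of a type and less RNA per cell cannot be told apart. The part of these shifts in cell types in the changes given next was not tested.

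Zinc finger and BTB transcripts were low to moderate in level and highest in the mixed culture. Their mean level over the 12 libraries ran from 0.929 to 225 CPM with a median of 29.9, against 42.7 over the 9288 transcripts tested. On a scale per transcript length, the highest were Zfp207 (100 TPM on average), Zfp330 (71.3), Zfp706 (61.3), Zfp91 (58.0) and Zfp622 (49.5), while the median was 11.7 and the lowest, Zfp362, was at 0.477 TPM. The 100 rows together took 5178 ± 67.4 CPM in ENR, 4400 ± 55.5 in EN and 4086 ± 90.5 in CV (SD, n = 4), and the 4 libraries of each culture did not overlap with those of the other two.

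ENR held the highest mean CPM for 62 of the 100 transcripts, whereas it did so for 27.3% of all transcripts. In 37 of them all 4 ENR values lay above all 8 values of CV and EN, a pattern found in 15.1% of all transcripts. The opposite pattern, all 4 ENR values lowest, was found in 1 (14.1% of all). CV was lowest without overlap for 31 (17.9% of all) and highest without overlap for 7 (20.7% of all), and EN was highest without overlap for 12 (27.5% of all) and lowest without overlap for 23 (30.9% of all). The mean CPM was highest in CV for 13 (33.3% of all) and in EN for 25 (39.4% of all). Counting on the spike-in scale gave 80 of 100 with the highest mean in ENR (42.6% of all) and TPM gave 56 (24.2%), but on the scale of the deposited mRNA copy numbers EN was highest for 81 (70.1% of all) and ENR for 6 (8.9%). The heatmap of members by library shows this order within each structural class.

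**Figure D1:**
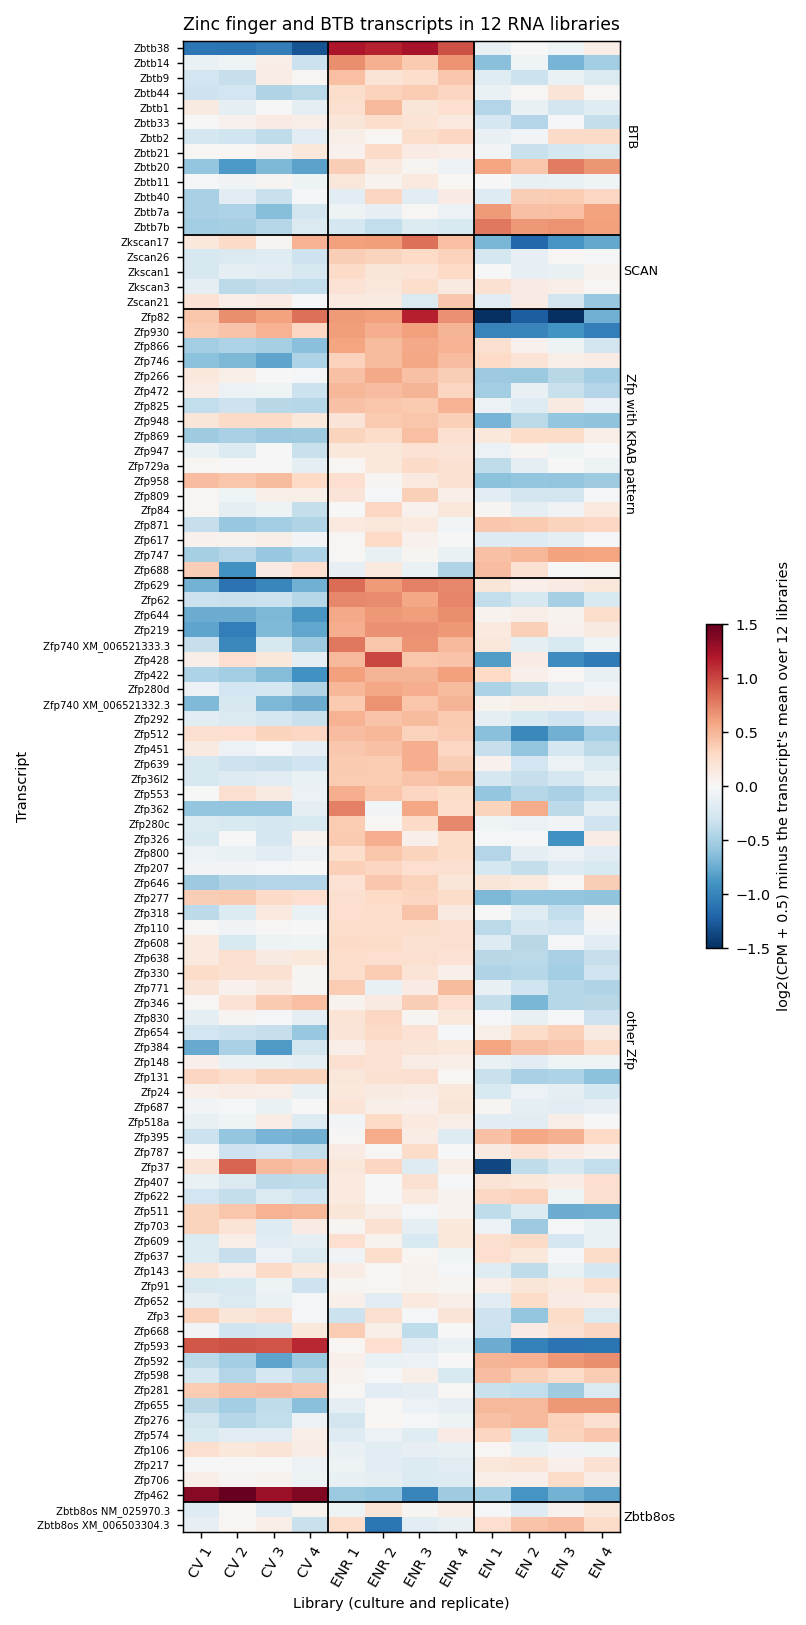
Each row is 1 of the 100 tested zinc finger and BTB transcripts and each column 1 of the 12 RNA libraries; colour is log2(CPM + 0.5) minus the row's mean over the 12 libraries, clipped at 1.5, and rows are grouped by structural class and sorted by their ENR level. The ENR columns lie above the row mean (red) in most rows of every class except Zbtb8os, and the deepest red in CV belongs to Zfp462 and Zfp593.

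CV against ENR, which asks what the 2 stem cell promoting small molecules do to cells that also receive R-Spondin-1, gave 58 changed transcripts at an adjusted p under 0.01, 6 higher and 52 lower in CV. Over all transcripts 60% were called, 30.2% higher and 29.8% lower, so the 52 of 100 lower members stand beside 29.8% of all transcripts. The median log2 fold change of the members was -0.32 and that of all transcripts -0.01. EN against ENR, which asks what follows the loss of R-Spondin-1, gave 70 changed, 11 higher and 59 lower in EN (72.7% of all transcripts called, 35.5% higher and 37.2% lower), with a median of -0.34 against -0.01. Both comparisons use the same 4 ENR libraries, so their likeness is no separate evidence. Relative to the median of all transcripts, the members' median lay 0.20 to 0.32 lower in CV than in ENR and 0.21 to 0.34 lower in EN than in ENR under all scalings tried. Under mRNA copy numbers, however, the unshifted median in EN against ENR was 0.61 (all transcripts: 0.88). There 51 members were called higher and 1 lower (5497 and 789 of all 9288 transcripts).

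EN against CV, the cultures named for enterocytes and for stem cells, split the members: 60 changed, 34 higher and 26 lower in EN, and 76.4% of all transcripts were called (35.2% higher, 41.2% lower). The median was 0.03 against -0.08 over all transcripts. With spike-in scaling the split was 9 higher and 37 lower (1473 and 4292 of all 9288 transcripts, whose median shifted to -0.49). With mRNA copy numbers it was 56 higher and 3 lower (4418 and 1258 of all, median of all 0.62). Relative to all transcripts the members lay 0.06 to 0.11 higher in EN under every scaling. Of the 100 members, 19 differed more than 2-fold between EN and CV against 37.2% of all transcripts, 9 between EN and ENR against 32.2%, and 13 between CV and ENR against 14.7%. These shares were not tested against each other. The distributions of fold changes show the values of members and of all transcripts.

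**Figure D2:**
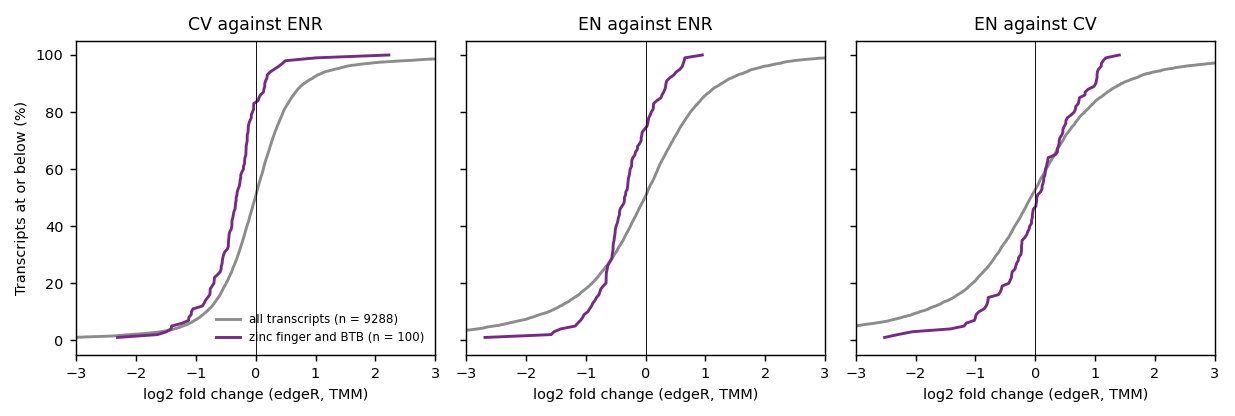
Cumulative share of transcripts (vertical axis, percent) at or below a given log2 fold change (horizontal axis, edgeR with TMM scaling, cut at -3 and 3) for the 100 zinc finger and BTB transcripts and for all 9288 tested. The member curve lies left of the grey curve through most of its range in CV against ENR (median -0.32 against -0.01) and EN against ENR (-0.34 against -0.01), and crosses it near 0 in EN against CV.

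Members and all transcripts were also set side by side at like levels, with the 9288 transcripts cut into 4 bins of equal size by mean CPM. Members had the lower median in each bin of both comparisons with ENR. In EN against ENR the members' medians were -0.35, -0.47, -0.33 and 0.08 from the lowest to the highest bin, against -0.20, -0.20, 0.04 and 0.26 for all transcripts. In CV against ENR they were -0.16, -0.37, -0.26 and -0.33, against -0.02, -0.05, 0.02 and 0.01.

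The tested transcripts belong to 13 BTB genes, 5 SCAN genes, 18 Zfp genes whose protein holds a KRAB pattern, 61 other Zfp genes (62 transcripts) and Zbtb8os, which is named for lying opposite Zbtb8 and encodes archease, a cofactor of the tRNA ligase. The BTB and SCAN classes were assigned by gene symbol and not by a search for the domain. Some of the other Zfp genes may therefore hold one of these domains. The KRAB class rests on a sequence pattern, and a KRAB domain that departs from it is missed. Zkscan1, Zkscan3 and Zkscan17 did not match the pattern. Genes outside the KRAB class are therefore not known to lack the domain. Proteins held a median of 6 C2H2 finger patterns, and the highest number was 33, in Zfp462. Of the 97 members found in the annotation, 16.5% lie on chromosome 7, which holds 7.13% of all listed genes. Medians of CV against ENR were negative for BTB (-0.40), SCAN (-0.44), KRAB pattern (-0.31) and other Zfp (-0.29). They stayed negative under the other scalings tried. In EN against ENR the medians were -0.29, -0.36, -0.34 and -0.41. All 4 turned positive under mRNA copy numbers (0.60, 0.66, 0.66 and 0.53), where the median of all transcripts was 0.88. In CV against ENR, transcripts of proteins with 4 to 9 fingers had a median of -0.40 (28 of 42 lower and none higher). Those with 0 to 3 fingers had one of -0.25 (14 of 33 lower and 4 higher). With 10 or more fingers it was -0.28 (10 of 23 lower and 2 higher). Over all transcripts 29.8% were lower and 30.2% higher. In EN against ENR the same classes had medians of -0.35 (26 lower and 6 higher), -0.30 (19 lower and 4 higher) and -0.33 (12 lower and 1 higher). Here 37.2% of all transcripts were lower and 35.5% higher. The difference between classes was not tested.

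Of the 6 members higher in CV than in ENR, Zfp462 had the largest difference. Zfp462 encodes a large zinc finger protein known for holding pluripotent cells away from other fates through heterochromatin. It was at 12.1, 13.6, 11.4 and 12.3 CPM in the CV libraries, 2.82, 2.78, 1.97 and 2.89 in ENR and 2.95, 2.14, 2.50 and 2.30 in EN. The CV libraries were all well above the other 8, and ENR and EN overlapped. The log2 fold change was 2.23 ± 0.16 (SE) in CV against ENR (edgeR, adjusted p = 8.5e-09), -2.30 ± 0.16 in EN against CV (adjusted p = 2.7e-09) and -0.07 ± 0.19 in EN against ENR (adjusted p = 0.80). These rest on 86 to 102 reads per CV library and 10 to 23 in the others.

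Zfp593, whose human counterpart works in late steps of large ribosomal subunit assembly, was ordered CV, ENR, EN. It was at 22.1, 22.4, 22.3 and 25.4 CPM in CV, 11.7, 13.6, 10.2 and 10.6 in ENR and 6.57, 5.35, 4.99 and 5.04 in EN. No 2 cultures overlapped. The log2 fold change was -2.06 ± 0.12 in EN against CV (adjusted p = 3.5e-10) and 1.01 ± 0.11 in CV against ENR (adjusted p = 1.0e-06). Zfp281, which binds G-rich promoters and acts in embryonic stem cells, followed the same order, from 30.0 CPM on average in CV to 21.2 in ENR and 17.2 in EN (log2 0.50 ± 0.08 in CV against ENR). The other 3 members higher in CV than in ENR were Zfp106, an RNA-binding protein (log2 0.31), Zfp958 (0.24) and Zfp706 (0.19).

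Zfp82 and Zfp930, both with the KRAB pattern, lost most RNA in EN. Zfp82 was at 3.77, 4.67, 4.37 and 5.18 CPM in CV, 4.48, 4.42, 6.68 and 4.66 in ENR and 0.268, 0.856, 0.535 and 1.44 in EN. All EN values lay below all others, while CV and ENR overlapped. Its log2 fold change was -2.52 ± 0.34 in EN against CV (adjusted p = 6.0e-06) and -2.68 ± 0.34 in EN against ENR (adjusted p = 3.2e-06), and its EN libraries held only 2 to 10 reads. Zfp930 was at 57.2 to 66.5 CPM in CV, 65.6 to 71.6 in ENR and 22.2 to 24.4 in EN (log2 -1.42 ± 0.06 and -1.58 ± 0.06 in EN against CV and ENR). Both genes have close relatives in the mouse genome, and the authors' index held only transcripts whose protein had been quantified, so reads of an unlisted relative could have been counted for them.

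The other large falls from CV to EN were Zfp37 (log2 -1.19 ± 0.26), Zkscan17 (-1.16 ± 0.13), Zfp511 (-1.02 ± 0.14), Zfp958 (-1.001 ± 0.06), Zfp512 (-0.99 ± 0.08) and Zfp277 (-0.94 ± 0.05). Zfp277 is known to bind the polycomb protein Bmi1. It stayed at 58.8 to 65.1 CPM in CV and 58.3 to 62.0 in ENR and was at 30.8 to 33.0 in EN. Zfp512 followed the same pattern, with 30.2 to 32.2 in CV, 32.6 to 36.3 in ENR and 12.8 to 17.6 in EN. Both fell in EN without overlap, and neither was called between CV and ENR (log2 0.04 ± 0.05 for Zfp277 and -0.14 ± 0.08 for Zfp512, whose CV and ENR values did not overlap). In EN the 9 proliferation markers summed to 179 to 196 CPM against 1510 to 1559 in CV, and their part in these falls was not tested.

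**Figure D3:**
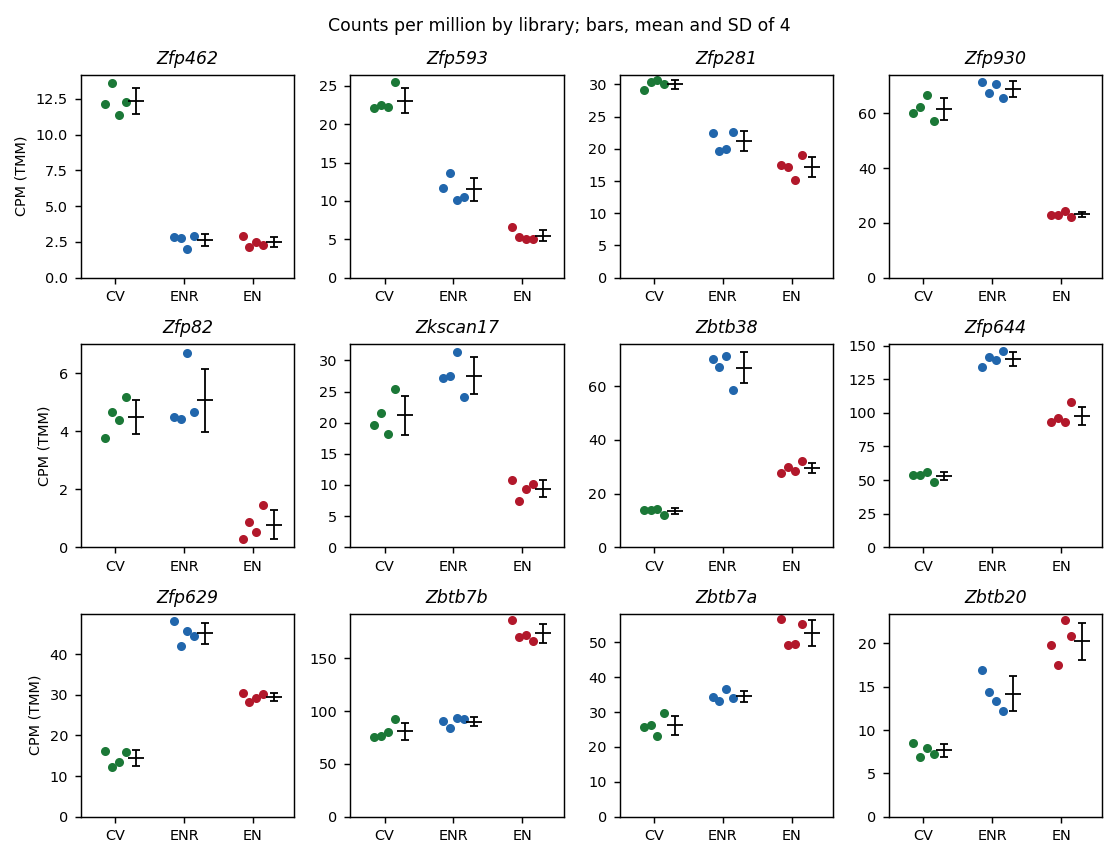
CPM (vertical axis, linear from 0) of 12 members in the 4 RNA libraries of each culture; points are libraries, and the bar beside them gives mean and SD (n = 4). Zfp462 is high in CV alone, Zfp930 and Zfp82 are low in EN alone, Zbtb38, Zfp644 and Zfp629 are highest in ENR, and Zbtb7b and Zbtb7a are highest in EN.

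Among transcripts with a mean of at least 10 counts in ENR, the largest falls from ENR to CV were in Zbtb38, Zfp629, Zfp219, Zfp644 and Zfp422. Zbtb38, a BTB protein that binds methylated DNA, was at 13.9, 13.7, 14.3 and 11.9 CPM in CV, 70.2, 67.2, 71.4 and 58.5 in ENR and 27.7, 29.8, 28.5 and 32.1 in EN. The 3 cultures did not overlap, with CV lowest and ENR highest. The log2 fold change was -2.31 ± 0.08 in CV against ENR (adjusted p = 4.3e-12) and -1.18 ± 0.08 in EN against ENR (adjusted p = 1.1e-09). Zfp644, which is known to bind the histone methyltransferase G9a, had the same order at 48.8 to 56.1, 134 to 146 and 93.1 to 108 CPM (log2 -1.41 ± 0.06 in CV against ENR). Zfp629 (log2 -1.64 ± 0.09), Zfp219 (-1.49 ± 0.09) and Zfp422 (-1.23 ± 0.11) were also lowest in CV and highest in ENR without overlap.

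Among the 13 BTB genes, 6 rose and 2 fell from CV to EN (35.2% and 41.2% of all transcripts), with a median of 0.40 against -0.08 over all transcripts. With spike-in scaling the median was -0.03 (all transcripts -0.49), and 4 rose and 4 fell (1473 and 4292 of all 9288). Zbtb7b (ThPOK, known from the CD4 T cell decision) was the highest of them per length (45.7 TPM). It was at 75.1, 76.1, 80.2 and 92.7 CPM in CV, 90.3, 83.8, 93.5 and 92.4 in ENR and 187, 170, 172 and 166 in EN. EN was above both other cultures without overlap, and CV and ENR overlapped. The log2 fold change was 1.10 ± 0.06 in EN against CV (adjusted p = 2.0e-10) and 0.95 ± 0.06 in EN against ENR (adjusted p = 1.4e-09). It was the largest rise of any member from ENR to EN.

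Zbtb7a (LRF, a repressor of glycolysis genes and of fetal globin) rose alongside it, from 23.1 to 29.8 CPM in CV and 33.1 to 36.6 in ENR to 49.2 to 56.6 in EN (log2 1.01 ± 0.08 against CV and 0.61 ± 0.08 against ENR). Zbtb20, known as a repressor of the fetal Afp gene in liver, had the largest rise of all members from CV to EN. It was at 8.49, 6.94, 7.95 and 7.23 CPM in CV, 16.9, 14.4, 13.4 and 12.2 in ENR and 19.8, 17.6, 22.7 and 20.9 in EN. The 3 cultures did not overlap. The log2 fold change was 1.40 ± 0.12 in EN against CV (adjusted p = 3.7e-08), at a low level per length (0.726 TPM on average). Zbtb38 (1.13 ± 0.09), Zbtb44 (0.40 ± 0.07) and Zbtb2 (0.41 ± 0.12) completed the rises from CV to EN. The Zbtb2 call was lost when 1 of 5 libraries was left out (CV 1, 2 or 3, EN 3 or 4), with the log2 fold change between 0.34 and 0.49.

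The 2 BTB genes that fell from CV to EN were Zbtb33 (Kaiso, a binder of methylated DNA; log2 -0.34 ± 0.07) and Zbtb21 (-0.28 ± 0.08, a call lost without CV 3, CV 4, EN 2, EN 3 or EN 4). Zbtb1 (-0.22 ± 0.10), Zbtb9 (-0.09 ± 0.11), Zbtb11 (-0.04 ± 0.05), Zbtb14 (-0.40 ± 0.14) and Zbtb40 (0.48 ± 0.17) did not pass the test. Zbtb14 and Zbtb9 nevertheless had their highest values in ENR, at 22.2 to 27.5 and 29.6 to 35.1 CPM, above all values of the other cultures. Against ENR, no BTB gene was higher in CV and 8 of 13 were lower (30.2% and 29.8% of all transcripts), while 3 were higher in EN and 8 lower (35.5% and 37.2% of all). Both transcripts of Zbtb8os, which share reads, passed in none of the 3 comparisons (means of 11.7 to 12.9 CPM per culture for the first and 1.63 to 2.62 for the second).

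All 5 SCAN genes had their highest mean CPM in ENR. Zkscan3, a repressor of autophagy genes, was at 53.4 to 63.9 CPM in CV, 77.9 to 85.2 in ENR and 72.1 to 83.5 in EN (log2 0.44 ± 0.06 in EN against CV). Zscan26 was at 53.3 to 58.3, 81.4 to 85.1 and 55.1 to 66.9, and Zkscan1 at 87.1 to 93.2, 117 to 126 and 94.2 to 107. All 3 fell from ENR to CV, with log2 fold changes of -0.52, -0.58 and -0.44. The rise of Zkscan1 from CV to EN (0.16 ± 0.05) was lost without CV 1, CV 3, CV 4, ENR 3, EN 1 or EN 4. Zkscan17 (Nizp1, known to bind the histone methyltransferase Nsd1) fell from CV to EN, from 19.7, 21.5, 18.2 and 25.4 CPM in CV and 27.1, 27.5, 31.4 and 24.2 in ENR to 10.7, 7.49, 9.28 and 10.1 in EN. Its EN values were all below the others. Zscan21, at 9.07 to 18.2 CPM over the 12 libraries, passed in none of the comparisons.

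Of the 18 Zfp genes with the KRAB pattern, 6 rose and 5 fell from CV to EN (35.2% and 41.2% of all transcripts). With spike-in scaling 1 rose and 9 fell (1473 and 4292 of all 9288). From ENR to EN 13 fell and 2 rose (37.2% and 35.5% of all), while under mRNA copy numbers 1 fell and 8 rose (789 and 5497 of all 9288). Zfp747 had the largest rise of this class, from 38.7 to 42.3 CPM in CV and 53.3 to 59.1 in ENR to 78.1 to 87.9 in EN (log2 1.03 ± 0.06 against CV), and Zfp871 was the other that rose against ENR (0.26). Zfp746 (PARIS, a repressor of Ppargc1a and a target of parkin) was at 13.1 to 16.6 CPM in CV, 29.6 to 34.8 in ENR and 24.6 to 28.5 in EN. The remaining falls from CV to EN beside Zfp82, Zfp930 and Zfp958 were Zfp948 (-0.82) and Zfp266 (-0.57).

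Of 18 listed transcripts of KRAB corepressors and heterochromatin proteins, 13 fell and 2 rose from CV to EN (41.2% and 35.2% of all transcripts), and 16 fell and none rose from ENR to EN (37.2% and 35.5% of all), with medians of -0.92 and -0.96 (all transcripts -0.08 and -0.01). Under mRNA copy numbers 4 fell and 4 rose from CV to EN (1258 and 4418 of all 9288), with a median of -0.19 (all 0.62). From ENR to EN 6 fell and 3 rose on that scale (789 and 5497 of all), with a median of 0.04 (all 0.88). Trim28 itself was at 227 to 260 CPM in CV, 425 to 440 in ENR and 153 to 173 in EN (log2 -0.55 ± 0.05 in EN against CV). The members of the list that fell most, Uhrf1 (log2 -5.73) and Dnmt1 (-2.67 and -2.77 for its 2 transcripts, which share reads), act at DNA replication, and the proliferation markers fell with them. The part of dividing cells in this was not tested. Of 27 transcripts of BTB corepressor partners, 9 rose and 14 fell from CV to EN (35.2% and 41.2% of all transcripts), and under mRNA copy numbers 10 rose and 2 fell (4418 and 1258 of all 9288). Ncor1 (1.30 and 1.18 for its transcripts) and Cul3 (0.51) were among the rises, and Hdac1, Hdac2, Rbbp7 and Bcor fell by 1.46, 1.77, 1.45 and 1.33 on the log2 scale.

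Of 24 listed zinc finger factors known by other names, 16 rose and 1 fell from CV to EN (35.2% and 41.2% of all transcripts), with a median of 0.57, where the 100 members had 34 and 26 and a median of 0.03. With spike-in scaling 7 of the 24 rose and 3 fell (1473 and 4292 of all 9288 transcripts). Klf4 (log2 1.502), Klf6 (1.21) and Casz1 (1.65) were among the rises, and Mecom (-2.06) was the fall. Against ENR, 2 of the 24 were higher in CV and 16 lower (30.2% and 29.8% of all transcripts). Their median of -0.34 was close to the members' own median. The difference between the lists was not tested.

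Several members do not act as transcription factors. Of 14 transcripts with roles in RNA, ribosomes, ubiquitin or the spindle, 3 rose and 6 fell from CV to EN (35.2% and 41.2% of all transcripts). Under spike-in scaling 0 rose and 6 fell (1473 and 4292 of all 9288). Under mRNA copy numbers 6 rose and 1 fell (4418 and 1258 of all). The rises and falls named next are those of the main test. The rises were Zfp598, the ubiquitin ligase of collided ribosomes (22.8 to 26.1 CPM in CV, 37.8 to 43.3 in EN, log2 0.72 ± 0.08), Zfp622, a ribosome assembly factor (0.51 ± 0.07), and Zfp91, a ubiquitin ligase (0.39 ± 0.05). The falls were Zfp593, Zfp346, which binds double-stranded RNA (-0.79 ± 0.14), Zfp638, an RNA-binding nuclear protein (-0.58 ± 0.04), Zfp451, a SUMO ligase (-0.39 ± 0.11, not called without CV 1 or EN 2), Zfp207, a spindle and kinetochore protein (-0.23 ± 0.04), and Zfp106 (-0.23 ± 0.04). Of the ribosome assembly genes, Zfp593 fell and Zfp622 rose. Zfp36l2, which promotes decay of AU-rich mRNAs, was at 74.7 to 82.5 CPM in CV, 115 to 123 in ENR and 69.4 to 81.3 in EN. It was lower in both CV and EN than in ENR (log2 -0.59 ± 0.05 and -0.66 ± 0.05), with no call between CV and EN. Zfp326 and Zfp830, both tied to splicing, differed little between CV and EN (-0.06 ± 0.20 and -0.05 ± 0.09).

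Promoter chromatin was read at 1 region of the authors' union of peaks per gene, the region near an annotated start with the most H3K4me3. Of the 99 genes 90 had such a region, in 89 regions since Zfp646 and Zfp668 share one. Scores are read counts that the authors normalised. From CV to EN, ATAC was called higher at 24 and lower at 7 of the 90 (limma, adjusted p under 0.01), where 24.4% of all regions and 24.9% of the promoter regions of all listed genes were called (promoters: 17.6% higher, 7.36% lower). The median change was 0.17 on the log2(score + 1) scale, against 0.09 for all promoters. With quantile normalisation the split was 12 higher and 12 lower and the median -0.05, so the excess of rises over falls depends on the scaling. Over all 7817 promoters that setting gave 571 higher and 1151 lower, with a median of -0.10. Without the variance trend 11 members were higher and 3 lower (552 and 332 of all promoters). The largest rises were Zfp746 (1.09 ± 0.12), Zscan26 (1.01 ± 0.20) and Zbtb7b (0.97 ± 0.16), and the largest falls Zfp462 (-2.61 ± 0.31), Zfp512 (-0.97 ± 0.17) and Zkscan17 (-0.92 ± 0.20). These 6 kept direction and call under each alternative tried, each library left out included. ATAC was called higher at 8 and lower at 5 in EN against ENR (14% of regions and 11.1% of promoters called; promoters 6.65% higher, 4.4% lower) and higher at 5 and lower at 10 in CV against ENR (7.93% and 7.18%; promoters 1.7% higher, 5.48% lower).

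The 250 bases just upstream of the annotated starts of these 6 genes are shown because their promoters changed most in accessibility. They are read 5′ to 3′ on the gene's strand from the NCBIM37 (mm9) genome, lie at chr4:54957670-54957919 (plus strand), chr5:31754559-31754808 (plus), chr11:59320147-59320396 (minus), chr6:48036593-48036842 (minus), chr13:21545600-21545849 (minus) and chr3:89195992-89196241 (minus), and end at the base before the annotated start. Capitals mark a match to one of the 6 motifs searched, which are spelled out after the chromatin results.
Zfp462: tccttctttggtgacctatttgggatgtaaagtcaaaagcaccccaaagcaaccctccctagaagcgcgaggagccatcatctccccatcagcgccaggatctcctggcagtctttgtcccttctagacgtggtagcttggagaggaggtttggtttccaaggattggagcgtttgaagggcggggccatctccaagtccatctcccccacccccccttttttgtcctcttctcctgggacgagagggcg
Zfp512: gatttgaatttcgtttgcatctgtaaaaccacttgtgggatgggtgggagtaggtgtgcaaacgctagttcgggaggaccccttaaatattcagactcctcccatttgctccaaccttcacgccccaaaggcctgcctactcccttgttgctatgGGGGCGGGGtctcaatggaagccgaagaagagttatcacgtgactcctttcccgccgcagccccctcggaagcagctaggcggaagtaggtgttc
Zkscan17: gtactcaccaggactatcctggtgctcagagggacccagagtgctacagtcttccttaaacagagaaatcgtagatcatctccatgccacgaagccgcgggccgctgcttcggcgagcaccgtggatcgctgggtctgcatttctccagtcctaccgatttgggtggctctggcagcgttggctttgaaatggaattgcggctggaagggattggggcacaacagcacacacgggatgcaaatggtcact
Zfp746: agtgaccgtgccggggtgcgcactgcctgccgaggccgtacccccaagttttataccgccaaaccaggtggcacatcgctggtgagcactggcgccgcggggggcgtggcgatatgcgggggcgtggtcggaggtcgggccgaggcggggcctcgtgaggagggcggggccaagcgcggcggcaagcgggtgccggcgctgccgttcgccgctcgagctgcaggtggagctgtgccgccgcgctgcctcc
Zscan26: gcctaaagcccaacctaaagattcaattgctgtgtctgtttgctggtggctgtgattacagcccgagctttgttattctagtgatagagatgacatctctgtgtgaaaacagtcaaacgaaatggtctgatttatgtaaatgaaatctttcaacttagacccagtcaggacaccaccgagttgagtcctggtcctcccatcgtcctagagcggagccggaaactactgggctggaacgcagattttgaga
Zbtb7b: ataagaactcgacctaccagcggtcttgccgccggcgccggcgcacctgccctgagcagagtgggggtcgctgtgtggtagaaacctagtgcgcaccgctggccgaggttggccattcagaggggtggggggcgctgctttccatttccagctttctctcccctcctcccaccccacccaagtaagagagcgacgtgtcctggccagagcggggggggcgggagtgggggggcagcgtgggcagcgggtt
The windows of Zfp746 (74.0% G or C) and Zbtb7b (67.2%) are rich in G and C, whereas that of Zscan26 is at 46.0%. The median over the 90 member windows was 61.4%, with 19 CpG sites, against 60% and 16 over 8311 windows of all listed genes.

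At Zfp462, ATAC and H3K4me3 were highest and H3K27me3 lowest in CV, the culture with the highest RNA. The promoter region, chr4:54957772-54958328, spans the annotated start of the gene (chr4:54957920-55096435, plus strand). Its ATAC score was 60, 48, 50 and 44 in CV, 5, 3, 8 and 12 in ENR and 5, 7, 12 and 7 in EN. H3K4me3, the mark of active starts, was 29, 24 and 23 in CV, 7, 9 and 7 in ENR and 1, 5 and 8 in EN. H3K27me3, the polycomb mark, ran the other way, with 3, 7 and 2 in CV, 28, 67 and 34 in ENR and 15, 14 and 23 in EN. In all 3 the CV libraries lay apart from the other 2 cultures, and ENR and EN overlapped in ATAC and H3K4me3 but not in H3K27me3. ATAC was higher in CV than in ENR by 2.81 ± 0.31 (adjusted p = 1.0e-05). The change of H3K27me3 in CV against ENR was -3.16 ± 0.67 (adjusted p = 0.0016), and this call was lost without CV 3, ENR 3 or ENR 4 (log2 change -2.80 to -3.28, adjusted p 0.012 to 0.081). The H3K4me3 difference between EN and CV, -2.46 ± 0.50, missed the threshold (adjusted p = 0.032), and H3K27ac was uneven (12, 1 and 22 in CV, 1 to 5 in the others).

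**Figure D4:**
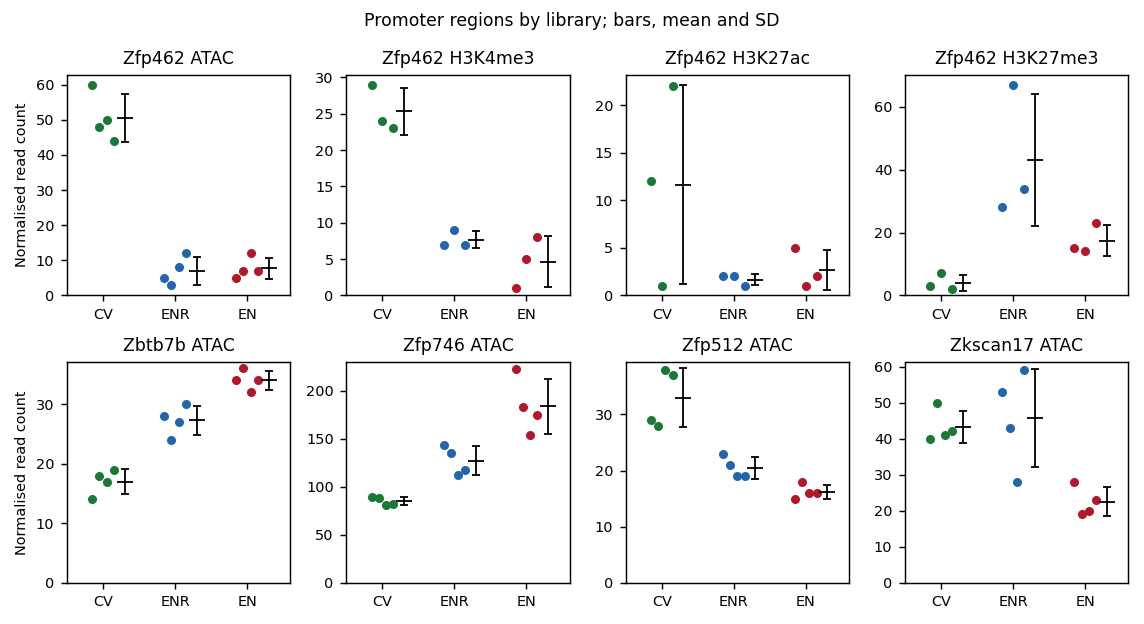
Normalised read count (vertical axis, linear from 0) at the promoter region of Zfp462 for ATAC and 3 histone marks and of 4 other genes for ATAC; points are libraries (4 per culture for ATAC, 3 for histone marks) and the bar gives mean and SD. Zfp462 has ATAC scores of 44 to 60 in CV and 3 to 12 elsewhere with H3K27me3 in reverse, Zbtb7b and Zfp746 gain ATAC from CV through ENR to EN, and Zfp512 and Zkscan17 are lowest in EN.

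Zbtb7b showed the reverse of Zfp462 in accessibility, with ATAC at 14, 18, 17 and 19 in CV, 28, 24, 27 and 30 in ENR and 34, 36, 32 and 34 in EN. The 3 cultures did not overlap, although the RNA of CV and ENR did. Zfp746 followed the same order (81 to 89, 112 to 144 and 154 to 223). Its RNA rose from CV to EN too, but was highest in ENR. At Zkscan17 ATAC was 40 to 50 in CV, 28 to 59 in ENR and 19 to 28 in EN, and at Zfp512 28 to 38, 19 to 23 and 15 to 18. Between CV and ENR, neither ATAC (0.65 ± 0.17, adjusted p = 0.012) nor RNA was called at Zfp512, and its values did not overlap in either.

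RNA and accessibility did not always share direction. Of the 24 member promoters with higher ATAC in EN than in CV, 9 had higher RNA, 6 lower RNA and 9 no call, which is 37.5% and 25% against 44.2% and 35.7% for all genes with higher promoter ATAC. Of the 7 with lower ATAC, 4 had lower and 1 higher RNA, which is 57.1% and 14.3% against 69.8% and 15.8% for all genes with lower promoter ATAC. The 6 with higher ATAC and lower RNA were Zbtb21, Zbtb33, Zfp143, Zfp277, Zfp330 and Zfp451, picked out here after their values were seen. At Zfp277 ATAC was 304, 270, 221 and 248 in CV, 291, 277, 292 and 290 in ENR and 394, 455, 425 and 399 in EN, while its RNA was lowest in EN without overlap. Across 89 member genes, Pearson's r between RNA and ATAC changes was 0.467 (Spearman's rho 0.374), and 0.360 without Zfp462. It was 0.394 across 8296 genes. These are correlations across genes, which are not independent replicates, between changes measured in different libraries of the same cultures.

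**Figure D5:**
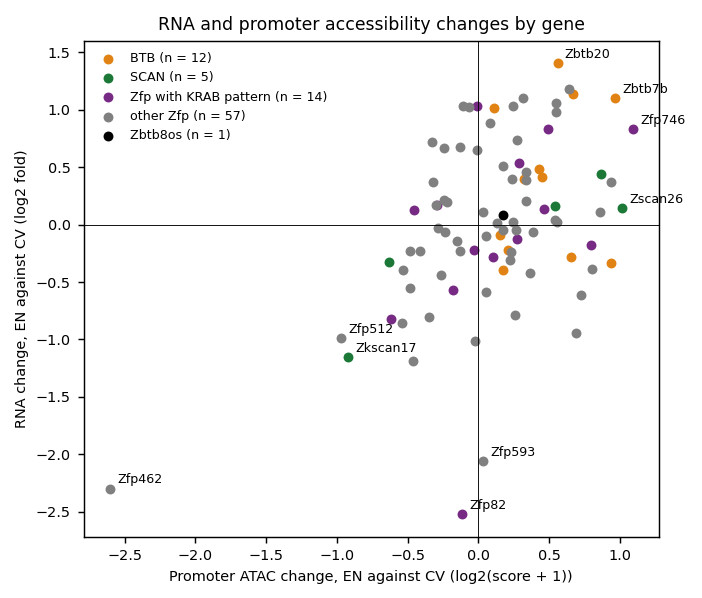
Change of RNA (vertical axis, log2 fold, EN against CV) against change of promoter ATAC (horizontal axis, log2(score + 1), EN against CV) for 89 genes, 1 point a gene, coloured by structural class. Zfp462 lies alone at the lower left (-2.61 in ATAC and -2.30 in RNA), while Zfp593 and Zfp82 fell in RNA by more than 2 on the log2 scale with ATAC changes close to 0.

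H3K27ac was higher in EN than in CV at 19 of the 90 promoters and lower at none (limma, adjusted p under 0.01). At that threshold 18% of all listed genes' promoters were called, 16.5% higher and 1.48% lower, and 3.22% of all regions. At an unadjusted p under 0.05, 39 member promoters were higher and 2 lower. No share over all promoters was taken at the unadjusted threshold, so these 2 counts have no background. Zbtb7a had the largest of the 19 rises, with 29, 59 and 32 in CV, 75, 111 and 82 in ENR and 99, 152 and 158 in EN (1.79 ± 0.30, a call lost without EN 3 or EN 4). CV and EN lay apart. The count of 19 was fragile. It was 2 under quantile normalisation and 0 without the variance trend. It was 6 to 8 without CV 5, EN 2, EN 3 or EN 4 and 11 without ENR 4. The calls over all promoters fell as well. Of 7817 promoters, 1290 were higher in the main test, 272 with quantile normalisation and 0 without the trend. Without CV 5, EN 2, EN 3 or EN 4 they were 497 to 841, and without ENR 4 they were 994. H3K4me3 was called higher at Zfp91 and Zbtb14 alone (2.1% of promoters called, 1.23% higher and 0.871% lower, and 2.17% of all regions). Zbtb14 scored 99, 79 and 89 in CV, 127, 128 and 122 in ENR and 226, 191 and 145 in EN. Its RNA was not called between EN and CV. Both H3K4me3 calls were near the threshold (adjusted p = 0.0090 and 0.0093), and both were lost without CV 2, CV 3, CV 4, ENR 2, EN 1, EN 2 or EN 4, and that of Zbtb14 also without ENR 1 or ENR 4.

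H3K27me3 at member promoters differed in no case between EN and CV (limma, adjusted p under 0.01), where 0.163% of all regions and 0.0256% of promoters were called. At an unadjusted p under 0.05, 4 member promoters were higher and none lower. No share over all promoters was taken at that threshold. Between CV and ENR, H3K27me3 was called lower in CV at 2 of 90, Zfp462 and Zfp423 (adjusted p under 0.01), where 0.192% of promoters and 0.299% of all regions were called. Zfp423, which gave almost no reads in RNA, had 8, 29 and 12 in CV, 62, 100 and 117 in ENR and 71, 7 and 32 in EN. Its CV and ENR scores lay apart, and EN ran across both. The call (-2.58 ± 0.57, adjusted p = 0.0033) was lost without CV 1, CV 3, ENR 3 or ENR 4 (adjusted p 0.031 to 0.060).

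The letters CCGGAAG, the core bound by ETS factors, were found on either strand in 18 of the 90 member windows (20.0%) and in 14.9% of all windows. GGGGCGGGG, the GC box, shown in capitals in the Zfp512 window and read by Sp and Klf factors, was in 18 (20.0% against 21.1%), CGCATGCG, the core of the Nrf1 site, in 5 (5.56% against 3.34%), and CTCGCGAG, the core of a site linked to Zbtb33, in 2 (2.22% against 1.67%). Neither CAAAGTCCA, read by Hnf4 factors, nor ACTACAATT, the core of the Zfp143 site, was found in a member window, and they were in 0.493% and 0.806% of all windows. No 2 of these motifs contain each other. A match is a description of letters, not of binding.

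Reads of Hnf4g, an enterocyte nuclear receptor, were deposited for 1 library per culture, so its levels have no replicate check. At the 89 member promoter regions together there were 259 reads in CV (exact 95% Poisson interval 228 to 293), 1255 in ENR (1187 to 1326) and 8980 in EN (8795 to 9168), of 84340, 352600 and 1816497 reads in all regions. That is 0.307%, 0.356% and 0.494% of reads. Scaled per region to CPM, members held 34.5, 40 and 55.5, close to the 30.3, 31.6 and 50.0 of the promoters of all listed genes. Zbtb7a had 5, 35 and 330 reads, or 59.3, 99.3 and 182 CPM (intervals 19.2 to 138, 69.1 to 138 and 163 to 202). Zfp462 had 0, 4 and 11 reads, or 0, 11.3 and 6.06 CPM (intervals 0 to 43.7, 3.09 to 29.0 and 3.02 to 10.8). The intervals of Zfp462 overlapped, so its cultures cannot be ordered. The intervals cover counting error only, and the CV count of 0 at Zfp462 allows up to 3.69 reads (the upper bound of its interval).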

How the data were processed

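RNA-seq, ATAC-seq and ChIPmentation libraries of CV, ENR and EN organoids were grouped by their sample labels. The authors depleted ribosomal RNA, added ERCC spike-ins, made stranded paired-end libraries and quantified them with kallisto (0.43.0 in the submitters' processing notes) against RefSeq transcripts restricted to those quantified as protein. Per the file headers, the deposited expression table holds expected counts, which were rounded to whole numbers here, TPM values (deposited as kallisto gave them) and mRNA copies, scaled by the authors to the added spike-ins. The 92 spike-in rows, 0.837% to 1.36% of counts, were left out of library sizes. For chromatin, the authors aligned to mm9 with BWA, removed duplicates with Picard, called peaks with MACS2 (2.0) and deposited a normalised score per region of a union of 94469 regions, rounded to whole numbers (H3K27me3 over extended regions); whether region starts count from 0 or 1 is not given in the sources used here. For Hnf4g the deposited values are raw read counts per region.

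The edgeR test (4.0.16, R 4.3.3; TMM, quasi-likelihood F test, culture as the only term) was run on transcripts above 0 in 4 or more libraries, and limma (3.58.1) on regions above 0 in 3 or more, as log2(score + 1) with a variance trend; p-values were adjusted over all features by Benjamini-Hochberg and called under 0.01. Two-sided tests were used. CPM values use TMM library sizes. A promoter region overlapped 500 bp around a GENCODE vM1 start and had the highest mean H3K4me3. Finger patterns (C-X2-4-C-X12-H-X3-5-H) and the KRAB pattern were searched in translations of GENCODE coding sequences in place of RefSeq proteins; Zfp131 and Zbtb11 had no match by symbol. The tests were checked on simulated data.

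The members and lists were chosen with earlier results of these data known. Named genes were the 10 largest rises and falls from CV to EN and the 5 largest in each comparison with ENR (called, no overlap of libraries, a mean of at least 10 counts in the higher culture), the 5 highest in TPM, all Zbtb, Zkscan and Zscan genes, those with roles in RNA, ribosomes, ubiquitin or the spindle, and the 3 largest ATAC rises and falls. Others named were chosen after their values were seen. Alternatives were other scalings (RLE, spike-ins, TPM, mRNA copies), DESeq2 (1.42.0), other filters, pseudocounts and thresholds, quantile normalisation of scores, a replicate block and each library left out. Replicate libraries of each culture differed by more than sampling noise (chi-square per degree of freedom 2.37 to 6.67). A further 10 histone libraries and the Hnf4g knockout RNA libraries were not analysed here.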

Additional observations from a re-analysis of the deposited data

Results flagged for a closer look

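In 7 of the 180 groups of libraries examined (54 members in 3 cultures, and promoter scores), 1 library stood far from the others of its culture. Chance alone flags about 1 in 20 such groups. In EN, Zbtb40 was at 7.37 CPM in replicate 1 (others 10.7 to 11.2), Zfp37 at 1.47 in replicate 1 (others 3.43 to 3.75) and Zfp428 at 3.85 in replicate 2 (others 1.44 to 1.74). In ENR, Zfp428 was at 7.53 in replicate 2 (others 4.86 to 5.12), Zfp462 at 1.97 in replicate 3 (others 2.78 to 2.89) and Zfp82 at 6.68 in replicate 3 (others 4.42 to 4.66). In CV, Zfp593 was at 25.4 in replicate 4 (others 22.1 to 22.4).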

How the results depend on the processing

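The split of RNA calls changed with the scaling. From CV to EN, 34 members were higher and 26 lower. With mRNA copy numbers the split was 56 and 3, with log2(TPM + 1) and log2(TPM + 5) 21 and 49 each, and with spike-in scaling 9 and 37. The same settings gave, over all transcripts, 4418 higher and 1258 lower, 2263 and 4976, 2275 and 4979, and 1473 and 4292. In EN against ENR (11 and 59), mRNA copy numbers gave 51 and 1, log2(TPM + 1) left 5 higher, log2(TPM + 5) 6 and spike-in scaling 0. Over all transcripts they gave 5497 higher and 789 lower, 2677 and 4045, 2685 and 4030, and 1094 and 4275. In CV against ENR (6 and 52), mRNA copy numbers gave 3 and 7, log2(TPM + 1) 11 higher, log2(TPM + 5) 12 higher, and spike-in scaling 2 and 29. Over all transcripts they gave 1409 higher and 461 lower, 3713 and 1895, 3780 and 1932, and 1039 and 1597. Leaving out 1 RNA library moved no count by more than 1.5 times. The causes of these differences were not tested, and the TPM and copy number alternatives also used limma in place of edgeR.

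Single genes turned direction with the scale. Under mRNA copy numbers the sign changed for 12 of the 60 members called in EN against CV. It changed for 50 of the 70 called in EN against ENR and 2 of the 58 in CV against ENR. All of these were falls in the main test. Spike-in scaling changed the sign of 8 in EN against CV and 5 in EN against ENR, all rises. The genes given next are only the named members among these. Under mRNA copy numbers, EN against CV turned for Zbtb21 (0.34), Zbtb33 (0.39), Zfp106 (0.55), Zfp207 (0.58), Zfp330 (0.16), Zfp451 (0.24) and Zfp638 (0.17). Spike-in scaling turned Zbtb2 (-0.016), Zbtb44 (-0.026), Zfp91 (-0.032) and Zkscan1 (-0.25), the last also turned by log2(TPM + 1) (-0.15) and log2(TPM + 5) (-0.12). In EN against ENR, mRNA copy numbers turned Zbtb1 (0.45), Zbtb11 (0.85), Zbtb21 (0.56), Zbtb33 (0.54), Zbtb44 (0.71), Zbtb9 (0.46), Zfp207 (0.37), Zfp219 (0.54), Zfp277 (0.053), Zfp281 (0.65), Zfp330 (0.28), Zfp346 (0.26), Zfp36l2 (0.31), Zfp422 (0.52), Zfp451 (0.16), Zfp511 (0.36), Zfp629 (0.40), Zfp638 (0.33), Zfp644 (0.47), Zfp746 (0.71), Zfp830 (0.71), Zfp958 (0.22), Zkscan1 (0.73) and Zscan26 (0.56), and spike-in scaling turned Zfp598 (-0.10) and Zfp706 (-0.21). No named call turned in CV against ENR.

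For promoters, ATAC from CV to EN (24 and 7) became 12 and 12 with quantile normalisation and 11 and 3 without the variance trend. Over all promoters the 1375 higher and 575 lower became 571 and 1151, and 552 and 332. H3K27ac (19 higher) became 2 with quantile normalisation, 0 without the trend and 30 higher and 1 lower at an adjusted p under 0.05. It ran from 6 to 17 with 1 library left out. Over all promoters the 1290 higher became 272, 0 and 2002 in the same order, and ran from 497 to 1151. H3K4me3 (2 higher) became 1 higher and 1 lower with quantile normalisation and 0 without the trend or the filter. It became 9 and 1 at an adjusted p under 0.05, and ran from 0 to 2 with 1 library left out. Over all promoters the 96 higher became 52, 12 without the trend, 70 without the filter and 518. They ran from 0 to 50 with 1 library left out. H3K27me3 in CV against ENR (2 lower) became 1 with quantile normalisation and 0 without the trend, and ran from 0 to 2 with 1 library left out. Over all promoters the 15 lower became 9 and 2, and ran from 2 to 22. The causes were not tested.

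With the replicate number as a block (replicate block), RNA calls were 34 higher and 26 lower in EN against CV. They were 11 and 56 in EN against ENR and 6 and 50 in CV against ENR. H3K27ac, H3K4me3 and H3K27me3 calls at member promoters fell to 0. Over all regions, H3K27ac and H3K4me3 calls in EN against CV also fell to 0. H3K27me3 calls in CV against ENR fell from 282 to 68. For these marks the cultures did not all share the same replicate numbers, so the block takes up part of the comparison. Libraries with the same number did not deviate together in RNA (correlations of -0.08 to 0.11 over 12 pairs), H3K27ac, H3K4me3 or H3K27me3. In ATAC all 12 pairs of the same number were positive (0.07 to 0.46, mean 0.17). The 36 ATAC pairs of unlike number ran from -0.45 to 0.21 (mean -0.06). The main tests did not take the number as a pairing, in ATAC either. ATAC calls from CV to EN were 23 higher and 6 lower with the block (1515 and 653 of all 7817 promoters).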
